A study of Mus musculus with 8 samples.

Results

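Foxp3, the lineage factor of regulatory T (Treg) cells, acts together with Runx and NFAT proteins. RNA of Foxp3 and 7 partner genes was followed over 4 populations of CD4 T cells sorted by their Foxp3 reporter: Runx1, Runx2 and Runx3, their shared subunit gene Cbfb, and the NFAT genes Nfatc1, Nfatc2 and Nfatc3. The 8 genes were taken by name from a table of 24108 named genes. All 8 had a row, and all 8 passed the expression filter that left 13989 genes for testing. They held between 1022 counts (the lowest library for Runx2) and 44791 counts (the highest for Nfatc1) per library.

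All groups came from mesenteric lymph nodes of mice of 1 genotype, Foxp3 DTR-GFP/Thy1.1, CD4CreER/wt and R26 lsl-tdTomato/wt. One Foxp3 allele carried GFP and the diphtheria toxin receptor, the other Thy1.1, for which the labels name no receptor. Tamoxifen let a Cre enzyme expressed from CD4 turn on tdTomato, a red fluorescent protein, which could thus mark any cell expressing CD4 at that time. Foxp3 is X-linked, so a cell with 1 active X chromosome shows 1 of the reporters. Every group was bred and weaned on AVNM (not explained in the labels) with an amino acid-defined diet, given tamoxifen and then diphtheria toxin over some weeks, moved to chow with SPF fecal microbes, and sorted 12 days after that. The stated purpose of the labelling was to mark CD4 T cells beyond the thymus while they were Foxp3-negative. Since the toxin receptor was labelled on the GFP allele, differences by reporter and by response to the toxin cannot be told apart.

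The 4 groups, with 2 libraries each, were tdTomato-positive GFP cells, tdTomato-positive Thy1.1 cells, tdTomato-negative GFP cells and tdTomato-negative Thy1.1 cells, called marked GFP, marked Thy1.1, unmarked GFP and unmarked Thy1.1 cells here. Neither the age of the mice nor any pooling of animals is given. Since separate animals are not stated for the 2 libraries of a group either, the p-values reflect only library-to-library spread, which may be technical.

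Library totals lay between 38085686 and 47908198 counts. Defining markers of CD4 T and Treg cells were present in all 8 libraries (9 of 10 listed genes were in the table, all of them with counts, at 4583 to 5809 summed CPM, that is, counts scaled to a common library total). Markers of other cells were uneven. Myeloid and dendritic genes summed to 38.8 and 8.79 CPM in the marked GFP libraries 3 and 4, to 114 and 13.2 CPM in the unmarked GFP libraries 3 and 4, and to at most 8.10 CPM in the Thy1.1 libraries. Erythroid genes reached 47.5 CPM in marked GFP library 3 and at most 5.37 CPM elsewhere. B cell genes lay between 20.6 and 51.0 CPM, CD8 and NK cell genes between 12.8 and 46.1 CPM, and stromal and epithelial genes between 154 and 315 CPM, of which Pecam1, which some leukocytes also express, made up 98.1 to 304 CPM. The 12 cell cycle genes differed by population, with 1210 and 972 summed CPM in marked GFP cells against 309 and 283 CPM in marked Thy1.1 cells, and with 614 and 476 CPM in unmarked GFP cells against 332 and 329 CPM in unmarked Thy1.1 cells.

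As background, Runx proteins bind DNA as heterodimers with CBF-beta, the product of Cbfb, which itself does not bind DNA. In Treg cells the pair Runx1 and CBF-beta binds Foxp3 protein, takes part in silencing Il2, and helps keep the Foxp3 gene on. NFAT proteins rest in the cytoplasm until calcium activates the phosphatase calcineurin, which strips their phosphates and lets them enter the nucleus. There they pair with AP-1 factors in activated T cells and with Foxp3 in Treg cells, and they also bind regulatory elements of the Foxp3 gene. RNA levels do not report on the nuclear share of NFAT.

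The sequences upstream of these genes show what Runx and NFAT letters stand there. RefSeq windows of 250 bases before the annotated start (GRCm38.p6) were found for 7 of the 8 genes, 12 windows in all. Nfatc1 was the gene without a window. Each whole window was searched on both strands for the Runx core TGTGGT or its reverse complement ACCACA, the NFAT core GGAAA or its reverse complement TTTCC, and the forkhead motif TGTTTAC or its reverse complement GTAAACA, no one of which contains another. Of all 32851 such windows in the mouse table, 14.05% held the Runx core, 55.57% the NFAT core and 3.17% the forkhead motif. Of the 12 windows of these genes, 2 held the Runx core, 8 the NFAT core and 2 the forkhead motif. The windows of the 3 genes below are printed 5′ to 3′ on the strand of the gene, without bases that GENCODE assigns to an exon of the same gene, and capitals mark the motif matches. Both Foxp3 windows are shown because Foxp3 is the gene the others act on. Both Runx3 windows are shown because Runx3 changed in 2 comparisons. The Cbfb window is shown because Cbfb changed with Runx3 in marked GFP against marked Thy1.1 cells.
Foxp3 first start, chrX:7579426-7579566, plus strand: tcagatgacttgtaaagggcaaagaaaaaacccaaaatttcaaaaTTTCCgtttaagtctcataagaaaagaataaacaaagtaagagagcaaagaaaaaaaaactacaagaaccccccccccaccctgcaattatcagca
Foxp3 second start, chrX:7580233-7580482, plus strand: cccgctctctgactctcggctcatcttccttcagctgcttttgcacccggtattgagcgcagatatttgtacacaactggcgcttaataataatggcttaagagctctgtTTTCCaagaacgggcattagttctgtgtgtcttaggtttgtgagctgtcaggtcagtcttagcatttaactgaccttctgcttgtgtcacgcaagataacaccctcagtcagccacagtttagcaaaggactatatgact
Runx3 first start, chr4:135120395-135120644, plus strand: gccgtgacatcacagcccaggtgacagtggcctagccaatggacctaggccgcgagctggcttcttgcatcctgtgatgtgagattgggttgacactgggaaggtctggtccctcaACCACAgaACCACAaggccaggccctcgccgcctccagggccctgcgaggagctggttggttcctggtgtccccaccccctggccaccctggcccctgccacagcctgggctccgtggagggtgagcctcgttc
Runx3 second start, chr4:135152295-135152495, plus strand: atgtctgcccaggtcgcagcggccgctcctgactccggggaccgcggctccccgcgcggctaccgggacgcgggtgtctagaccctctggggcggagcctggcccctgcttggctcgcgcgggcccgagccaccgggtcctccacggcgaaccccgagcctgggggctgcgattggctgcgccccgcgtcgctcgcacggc
Cbfb, chr8:105170424-105170673, plus strand: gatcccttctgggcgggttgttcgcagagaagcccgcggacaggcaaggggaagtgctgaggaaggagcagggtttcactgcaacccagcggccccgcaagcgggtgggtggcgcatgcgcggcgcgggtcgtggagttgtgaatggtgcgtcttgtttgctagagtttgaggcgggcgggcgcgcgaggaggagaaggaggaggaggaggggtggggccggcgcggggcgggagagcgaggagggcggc
Each Foxp3 window held 1 NFAT core, at -205 to -201 of the first start and at -140 to -136 of the second. The window of the first Runx3 start held 2 Runx cores close together, at -134 to -129 and -126 to -121, whereas that of the second start held none of the 3 motifs. The Cbfb window held none of them either. The Runx2 window, not printed, held 1 Runx core and 2 NFAT cores. Both Foxp3 windows of 250 bases lie wholly within exons of the RNA gene Flicr. A match of these letters is a description and no evidence of binding.

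Foxp3 itself was lowest in marked GFP cells. Its level was 126 and 141 CPM in marked GFP cells, 186 and 187 CPM in marked Thy1.1 cells, 146 and 166 CPM in unmarked GFP cells, and 175 and 201 CPM in unmarked Thy1.1 cells. Both marked GFP libraries lay below the other 6, and the 4 Thy1.1 libraries lay above all 4 GFP libraries. Here and for the genes below, the share of all genes with such separations was not worked out. Separation of 2 populations alone was common. It held for 59% of all genes tested between the marked populations and for 53.8% between the GFP populations. In order of the means, unmarked and marked Thy1.1 cells overlapped, while the steps down to unmarked GFP and on to marked GFP cells did not overlap in their libraries. Fewer cells that express a gene and less RNA per cell cannot be told apart in such bulk samples. Among marked cells Foxp3 fell by 0.48 ± 0.12 on the log2 scale with GFP (SE, 2 libraries per population; edgeR adjusted p = 0.0314). The call was lost without marked GFP library 3 (-0.42, adjusted p = 0.112) and without Thy1.1 library 1 or 2 of the marked cells (-0.51 and -0.48, adjusted p = 0.14 and 0.144). In unmarked cells the difference was -0.27 ± 0.12 (edgeR adjusted p = 0.43), within GFP cells marked minus unmarked was -0.22 ± 0.12 (adjusted p = 0.253), and within Thy1.1 cells it was -0.01 ± 0.12 (adjusted p = 1).

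Foxp3 lies at chrX:7573644-7595245 on the plus strand (GRCm38, GENCODE M21). Its exons overlap those of Ccdc22 over 590 bases, of Ppp1r3f over 266 bases, of the gene model Gm36995 over 373 bases and, on the same strand, of the RNA gene Flicr over 853 bases, and the library kit does not mark strand. Ccdc22 lay at 26.8 and 45.8 CPM in marked GFP cells against 33.6 and 29.8 CPM in marked Thy1.1 cells, and Ppp1r3f at 43.9 and 61.2 CPM against 44.9 and 45.9 CPM. Neither passed the test (edgeR adjusted p = 0.662 and 0.619). Flicr and Gm36995 had no row under these names in the table of counts. The part of overlapping reads in the Foxp3 counts was not tested. Both reporters alter the Foxp3 locus itself, and how reads of the 2 alleles were counted was not tested.

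**Figure D1:**
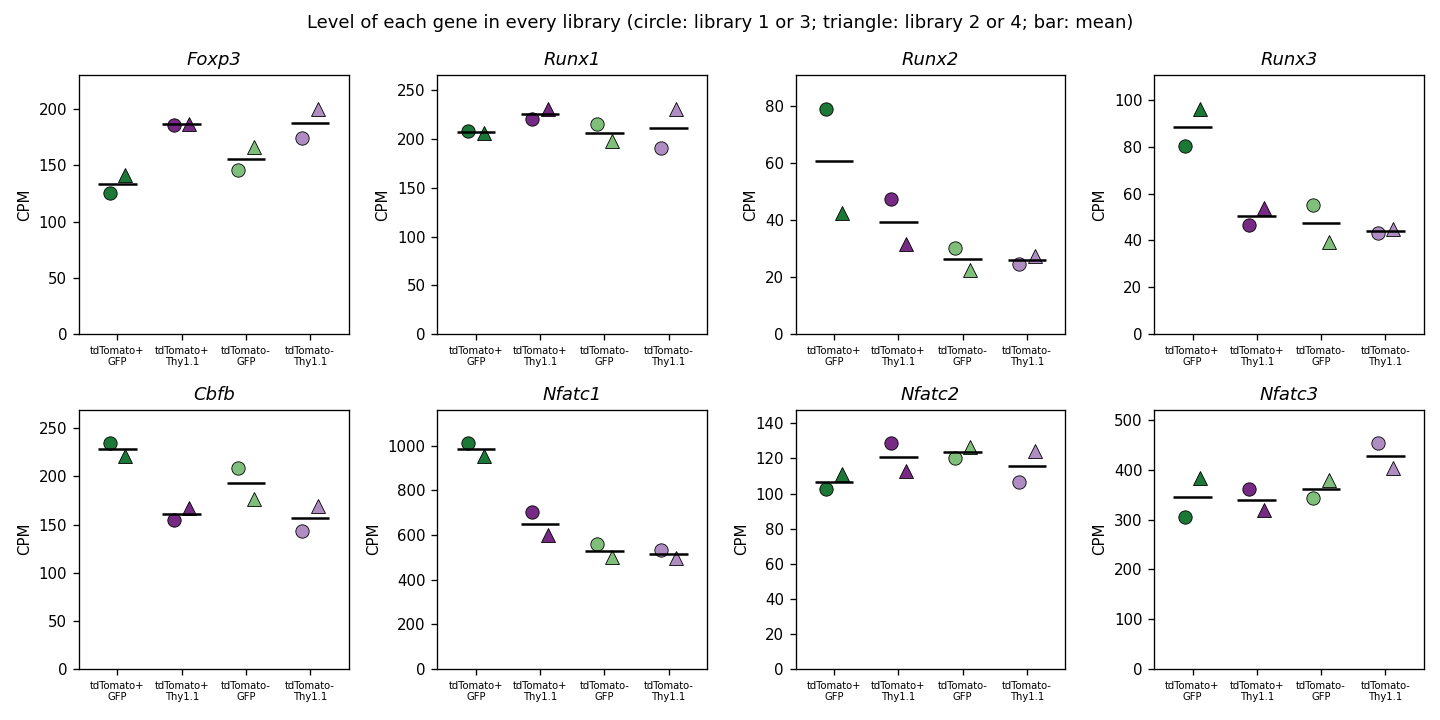
Level of each of the 8 genes in CPM (vertical axis, starting at 0) in each library, by population; circles are libraries 1 or 3, triangles libraries 2 or 4, and bars the mean of 2 libraries. The marked GFP libraries are lowest for Foxp3 and highest for Runx3, Cbfb and Nfatc1, and Runx1, Nfatc2 and Nfatc3 show no such separation.

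The central comparison set marked GFP cells against marked Thy1.1 cells. Of the 8 genes, 3 were higher in marked GFP cells (Runx3, Cbfb and Nfatc1), Foxp3 was lower, and 4 did not pass the test. Over all 13989 genes tested, 14.8% were called in this comparison (8.01% higher and 6.82% lower), and 59% had libraries that did not overlap between the 2 populations. The number of genes called, 2074, was 461 and 502 without marked Thy1.1 library 1 or 2. The cell cycle genes moved with it, 12 of 12 called higher with a median log2 fold change of 2.54. Their part in these differences was not tested.

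Among the DNA-binding Runx genes, Runx3 was the one called in marked GFP against marked Thy1.1 cells. Runx3, known for silencing Cd4 in the CD8 T cell lineage and for its role in Th1 cells, had 80.4 and 96.3 CPM in marked GFP cells against 46.7 and 53.9 CPM in marked Thy1.1 cells. Both marked GFP libraries exceeded the other 6, which reached 55.2 CPM at most. It rose by 0.81 ± 0.19 on the log2 scale, a 1.76-fold difference (edgeR adjusted p = 0.027). The call was lost without marked GFP library 4 (0.68, adjusted p = 0.0869), without marked Thy1.1 library 1 or 2 (0.69 and 0.92, adjusted p = 0.201 and 0.0987), and without unmarked Thy1.1 library 1 or 2 (0.79 and 0.80, adjusted p = 0.0599 and 0.0545). Runx3 is also high in CD8 T and NK cells, whose 7 listed genes summed to 12.8 and 17.7 CPM in marked GFP cells, against 23.0 and 15.7 CPM in marked Thy1.1 cells. In marked GFP cells Cd8a was at 0.542 and 0 CPM, Cd8b1 at 6.68 and 8.36 CPM and Klrb1c at 5.53 and 9.32 CPM, against 1.04 and 0.869, 15.7 and 9.99, and 4.75 and 3.25 CPM in marked Thy1.1 cells, and Ncr1 and Klrk1 were at 0 in both marked GFP libraries. The part of such cells in the Runx3 level was not tested.

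Runx1, the Runx protein best known to bind Foxp3, was at 208 and 206 CPM in marked GFP cells and 221 and 231 CPM in marked Thy1.1 cells. Its log2 fold change was -0.13 ± 0.11 (edgeR adjusted p = 0.501). Between these populations its libraries did not overlap, as for 59% of all genes tested. Over all 8 libraries it stayed between 191 and 231 CPM, and every neighbouring pair in the order of its population means overlapped. Runx2, the master factor of bone formation, was at 79.2 and 42.6 CPM in marked GFP cells and 47.5 and 31.5 CPM in marked Thy1.1 cells. The libraries of the 2 populations overlapped, and the log2 fold change of 0.62 ± 0.32 did not pass (edgeR adjusted p = 0.243).

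Cbfb, the gene for the common partner of the Runx proteins, had 234 and 222 CPM in marked GFP cells against 154 and 167 CPM in marked Thy1.1 cells, and 209 and 176 CPM in unmarked GFP cells against 143 and 170 CPM in unmarked Thy1.1 cells. All 4 GFP libraries lay above all 4 Thy1.1 libraries. Among marked cells it rose by 0.51 ± 0.13 (1.42-fold; edgeR adjusted p = 0.033), and among unmarked cells the difference was 0.30 ± 0.13 (adjusted p = 0.403). The call among marked cells was lost when libraries were scaled by their totals (0.45, adjusted p = 0.0549), without marked GFP library 3 or 4 (0.45 and 0.55, adjusted p = 0.117 and 0.0557), without marked Thy1.1 library 1 or 2 (0.42 and 0.56, adjusted p = 0.225 and 0.117), and without unmarked Thy1.1 library 1 (0.48, adjusted p = 0.0531).

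Nfatc1, the NFAT gene that activated T cells induce through NFAT itself, was the NFAT gene that passed the test. It had 1011 and 957 CPM in marked GFP cells, 701 and 599 CPM in marked Thy1.1 cells, 558 and 503 CPM in unmarked GFP cells, and 533 and 499 CPM in unmarked Thy1.1 cells. The marked GFP libraries lay above all others, the marked Thy1.1 libraries came next without overlap, and the 2 unmarked populations overlapped. Nfatc1 rose by 0.60 ± 0.10 in marked GFP against marked Thy1.1 cells (1.51-fold; edgeR adjusted p = 0.00813). That call was lost in 1 case, without marked Thy1.1 library 2 (0.49, adjusted p = 0.0674).

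The other NFAT genes did not pass, although the Nfatc2 libraries did not overlap between marked GFP and marked Thy1.1 cells. Nfatc2, which encodes the NFAT protein long present in resting T cells, was at 103 and 111 CPM in marked GFP cells and 129 and 113 CPM in marked Thy1.1 cells, a log2 fold change of -0.18 ± 0.12 (edgeR adjusted p = 0.386). Nfatc3 was at 305 and 385 CPM in marked GFP cells and 362 and 319 CPM in marked Thy1.1 cells, a log2 fold change of 0.02 ± 0.13 (edgeR adjusted p = 0.952). The family members Nfatc4 and Nfat5 were listed at 0 in all 8 libraries. Whether their RNA was absent or their reads were not counted was not tested.

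**Figure D2:**
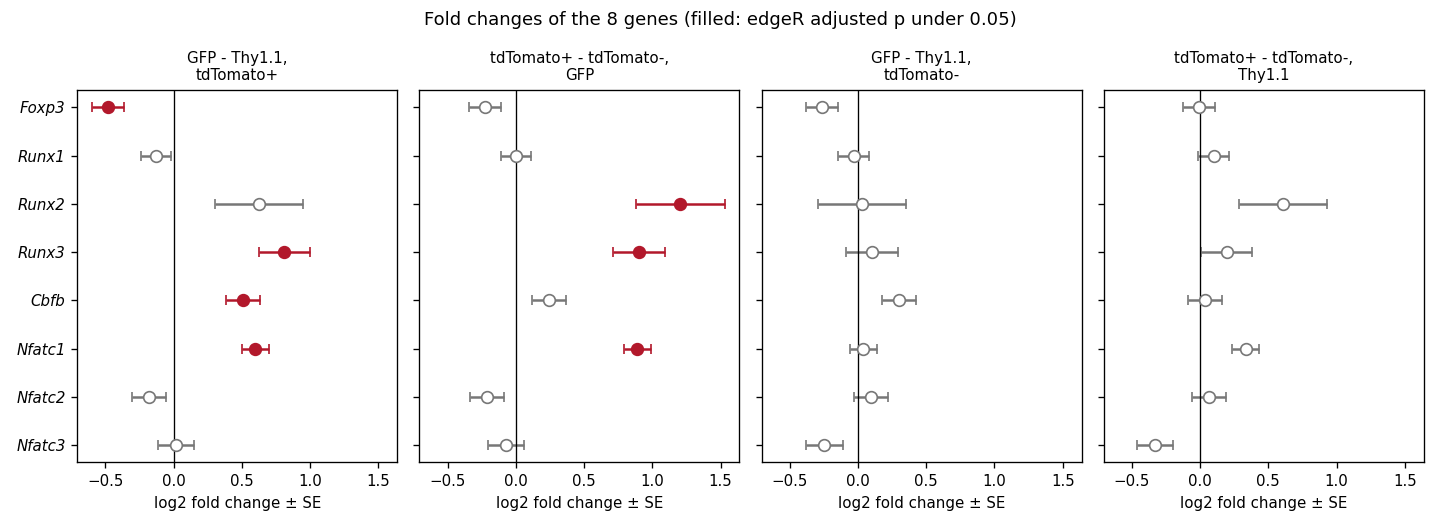
Log2 fold change (horizontal axis) with its SE from the fit over 8 libraries for each gene in 4 comparisons, each first population minus the second; filled red points had an edgeR adjusted p under 0.05. In marked cells GFP minus Thy1.1 has 4 filled points with Foxp3 at -0.48, marked minus unmarked GFP cells has 3 with Runx2 at 1.21, and the other 2 comparisons have none.

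Within GFP cells, marked cells were set against unmarked cells, a comparison that uses the same 2 marked GFP libraries as the one above and so does not stand apart from it. Here 3 of the 8 genes were higher (Nfatc1, Runx3 and Runx2) and 0 lower, where 12.6% of all genes tested were called (6.24% higher and 6.4% lower) and 53.8% did not overlap. The number of genes called, 1768, was 438 without unmarked GFP library 4, and lay at 929 to 1098 without marked GFP library 3 or any 1 Thy1.1 library. Of the 12 cell cycle genes, 8 were higher and 0 lower.

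Nfatc1 rose by 0.89 ± 0.10 on the log2 scale (1.85-fold; edgeR adjusted p = 0.00263), with 1011 and 957 CPM in marked against 558 and 503 CPM in unmarked GFP cells. This call held under each of the alternatives run, with log2 values between 0.82 and 0.97. Runx3 rose by 0.90 ± 0.19 (1.87-fold; edgeR adjusted p = 0.023), with 80.4 and 96.3 CPM in marked against 55.2 and 39.3 CPM in unmarked GFP cells. Its call was lost when the fit held these 2 populations alone (0.87, adjusted p = 0.104) and without marked GFP library 4 (0.77, adjusted p = 0.0645), unmarked GFP library 4 (0.68, adjusted p = 0.107), marked Thy1.1 library 1 (0.86, adjusted p = 0.054) or unmarked Thy1.1 library 1 (0.86, adjusted p = 0.0558).

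Runx2 rose by 1.21 ± 0.33 (2.31-fold; edgeR adjusted p = 0.0494), with 79.2 and 42.6 CPM in marked against 30.3 and 22.5 CPM in unmarked GFP cells. This is a call at the edge of the threshold. It was lost with other scaling, a non-robust dispersion, limma-voom or these 2 populations alone (adjusted p between 0.0515 and 0.13), and without any 1 library other than marked GFP library 4 (adjusted p between 0.0671 and 0.232). Without marked GFP library 3 the log2 value was 0.69. Exons of Runx2 overlap those of an antisense gene over 519 bases, so its level is uncertain. Runx2 is also high in plasmacytoid dendritic cells, whose gene Siglech was at 0 in both marked GFP libraries and at 36.8 and 0 CPM in unmarked GFP libraries 3 and 4.

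The other 5 genes did not pass in this comparison. Runx1 was at 0.00 ± 0.11 (edgeR adjusted p = 0.997), with 208 and 206 CPM in marked and 215 and 198 CPM in unmarked GFP cells. Cbfb was at 0.24 ± 0.13 (adjusted p = 0.244), Nfatc2 at -0.21 ± 0.12 (adjusted p = 0.301) and Nfatc3 at -0.07 ± 0.13 (adjusted p = 0.786), besides Foxp3 above. Nfatc2 was at 120 and 127 CPM and Nfatc3 at 343 and 381 CPM in unmarked GFP cells. The libraries of Foxp3, Cbfb and Nfatc2 did not overlap between marked and unmarked GFP cells, as for 53.8% of all genes tested.

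Unmarked GFP cells against unmarked Thy1.1 cells gave 0 calls among the 8 genes, where 0.164% of all genes were called (0.0643% higher and 0.1% lower) and the libraries of 42.6% did not overlap. The differences with the smallest p were those of Cbfb and Foxp3, given above, which had the same signs as in marked cells. Runx2 was at 0.03 ± 0.32 (edgeR adjusted p = 0.987), Runx3 at 0.10 ± 0.19 (adjusted p = 0.892) and Nfatc1 at 0.04 ± 0.10 (adjusted p = 0.929). In unmarked Thy1.1 cells Runx2 had 24.5 and 27.3 CPM, Runx3 43.2 and 44.7 CPM, Nfatc2 107 and 124 CPM, and Nfatc3 454 and 404 CPM. Nfatc3 was lower in both unmarked GFP libraries than in both unmarked Thy1.1 libraries, with a log2 fold change of -0.24 ± 0.13 that did not pass (adjusted p = 0.527).

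Marked against unmarked Thy1.1 cells also gave 0 calls among the 8 genes, in a comparison with 0 calls by edgeR over all genes (0% of those tested, although the libraries of 45% did not overlap; 1062 at an unadjusted p under 0.05, and 150 calls by DESeq2). Nfatc1 had the smallest p of the 8, with 701 and 599 CPM in marked against 533 and 499 CPM in unmarked Thy1.1 cells (log2 fold change 0.33 ± 0.10; edgeR adjusted p = 0.55). Nfatc3 was at -0.33 ± 0.13 (adjusted p = 0.632), with 362 and 319 CPM against 454 and 404 CPM. Runx2 was at 0.61 ± 0.32 (adjusted p = 0.733), with 47.5 and 31.5 CPM against 24.5 and 27.3 CPM, and Runx3 at 0.19 ± 0.19 (adjusted p = 0.888).

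The interaction asked whether the GFP minus Thy1.1 difference was the same in marked and unmarked cells. It was called for 0 of the 8 genes by edgeR, where 0.443% of all genes were called (0.0929% higher and 0.35% lower). The largest values were 0.71 ± 0.27 for Runx3 (edgeR adjusted p = 0.331), 0.60 ± 0.46 for Runx2 (adjusted p = 0.64) and 0.56 ± 0.14 for Nfatc1 (adjusted p = 0.168). Nfatc1 passed by DESeq2 (0.53, adjusted p = 0.0236). Foxp3 was at -0.22 ± 0.17 (edgeR adjusted p = 0.643) and Cbfb at 0.21 ± 0.18 (adjusted p = 0.686). That Nfatc1 and Runx3 differed between reporters in marked cells but not in unmarked cells is therefore not shown as a difference by the edgeR test.

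**Figure D3:**
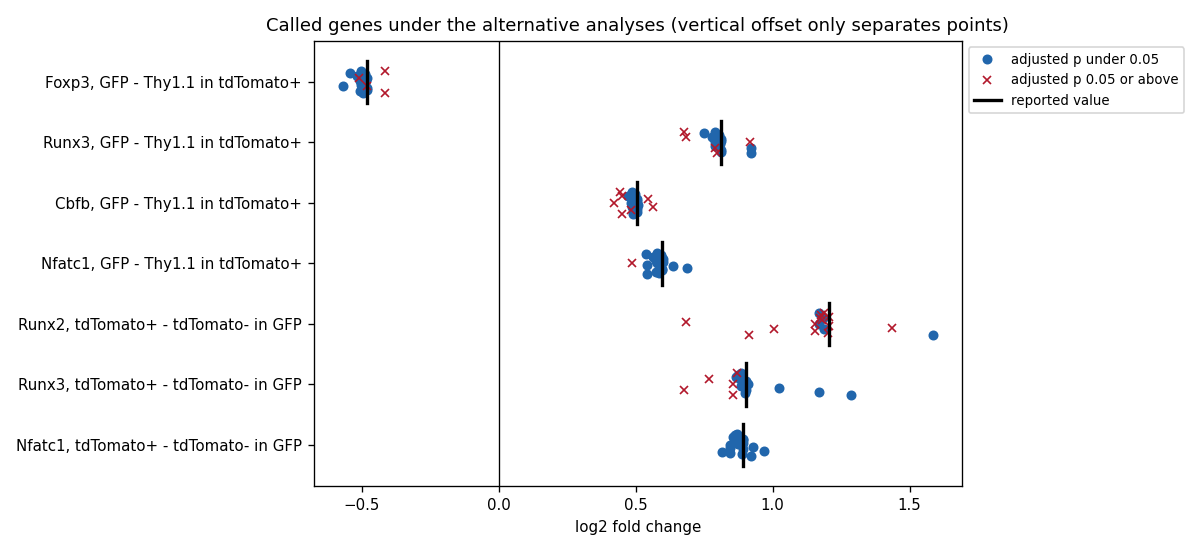
Log2 fold change (horizontal axis) of the 7 called results under each alternative analysis; blue circles kept an adjusted p under 0.05, red crosses did not, and black lines are the reported values. Every point keeps the sign of its reported value, and Nfatc1 in GFP cells has no cross.

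Levels of different genes were compared per kilobase of the union of their annotated exons. On this scale Nfatc1 was the most abundant of the 8 in every population, with 132 ± 5.11 CPM per kb in marked GFP cells (SD, n = 2), 87.0 ± 9.67 in marked Thy1.1 cells, 71.0 ± 5.25 in unmarked GFP cells and 69.1 ± 3.21 in unmarked Thy1.1 cells. Cbfb was next, at 65.5 ± 2.57, 46.1 ± 2.59, 55.4 ± 6.65 and 44.95 ± 5.33 CPM per kb in the same 4 populations. Foxp3 came after it, except in marked GFP cells where Nfatc3 lay between them, at 29.2 ± 2.39, 40.8 ± 0.0387, 34.1 ± 3.15 and 41.0 ± 4.01 CPM per kb. Runx2 was the least abundant in every population. With the longest transcript in place of the exon union, Nfatc1 remained first and Runx2 last in each population, while Nfatc3 stood above Foxp3 in all 4 populations and above Cbfb in the 2 Thy1.1 populations, and Runx1 stood above Foxp3 in marked GFP cells. The place of Foxp3 in the order thus depends on the length used.

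The make-up of the Runx transcripts differed in marked GFP cells. Runx1 made up 40.9% and 41.6% of the Runx level per kb in marked GFP cells, against 55.5% and 57.3% in marked Thy1.1 cells, and 55.3% to 61.5% in the 4 unmarked libraries. Runx3 made up 37.96% and 46.7% in marked GFP cells and 28.2% to 34.1% in the other 6 libraries. Runx3 exceeded Runx1 in marked GFP library 4 on this scale but not with longest transcripts, where Runx1 made up 51.85% and 52.8% and Runx3 30.2% and 37.3% in marked GFP cells, against 66.04% to 71.5% and 20.9% to 25.5% in the other 6 libraries. These shares have no test of their own, because they restate the fold changes of the 3 genes. Summed over the 3 genes, the Runx level was 42.3 and 41.2 CPM per kb in marked GFP cells, against 33.1 and 33.6 in marked Thy1.1 cells, and 26.9 to 32.4 in the unmarked libraries. Divided by Cbfb per kb, the Runx sum was 0.629 and 0.647 in marked GFP cells, 0.747 and 0.70 in marked Thy1.1 cells, 0.539 and 0.53 in unmarked GFP cells, and 0.663 and 0.642 in unmarked Thy1.1 cells.

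Shares of the NFAT transcripts were taken over Nfatc1, Nfatc2 and Nfatc3. Nfatc1 made up 79.1% and 74.7% per kb in marked GFP cells, 68.5% and 67.9% in marked Thy1.1 cells, and 59.1% to 64.8% in the 4 unmarked libraries. Nfatc2 made up 5.67% to 6.12% in marked GFP cells and 8.39% to 10.7% in the other 6 libraries. With longest transcripts the shares of Nfatc1 were 71.2% to 76.1% in marked GFP cells and 54.8% to 64.8% in the others. For 1 unit of Nfatc1 in CPM, marked GFP cells held 0.124 and 0.148 of Foxp3, marked Thy1.1 cells 0.266 and 0.312, and the unmarked libraries between 0.261 and 0.402.

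**Figure D4:**
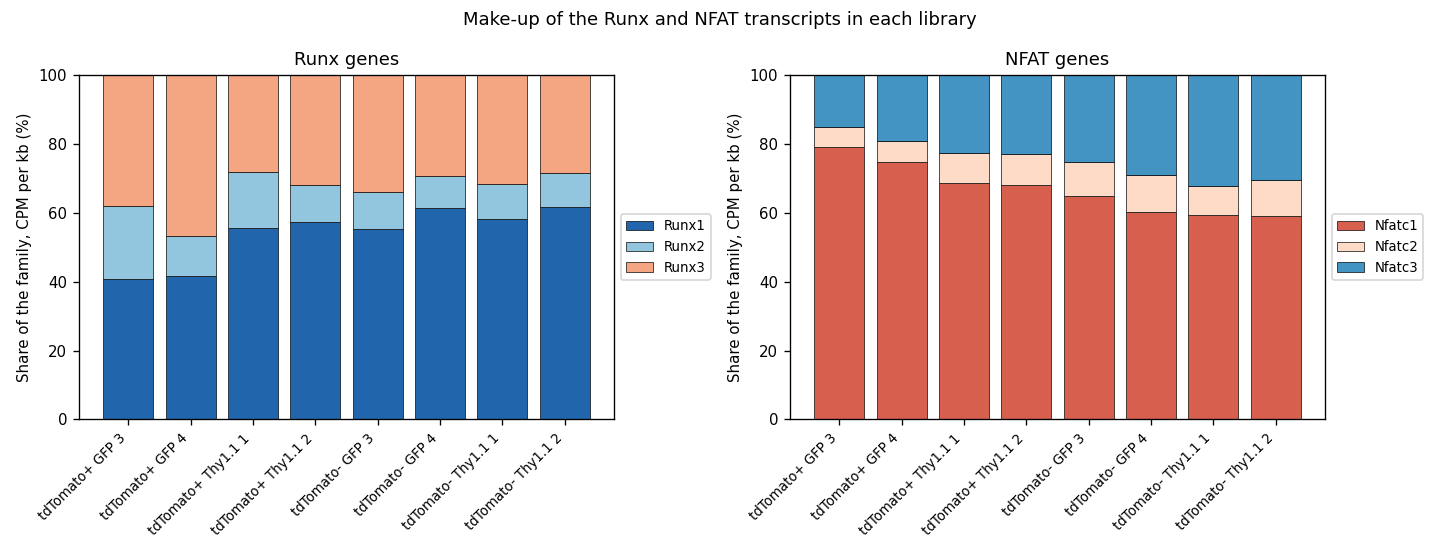
Share of each gene in the summed level per kb of its family (vertical axis, percent) in each of the 8 libraries, for Runx genes (left) and NFAT genes (right). In marked GFP libraries Runx1 holds 40.9% and 41.6% and Nfatc1 79.1% and 74.7%, against 55.3% or more for Runx1 and 68.5% or less for Nfatc1 in the other libraries.

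The levels of the called genes were set beside the level of the cell cycle genes. The 2 marked GFP libraries had the highest cell cycle sums and the unmarked GFP libraries the next highest. Foxp3 was lowest where that sum was highest, at 126 CPM beside 1210 summed CPM, and its Thy1.1 libraries of 175 to 201 CPM stood beside sums of 283 to 332 CPM. Cbfb ran the other way, with 234 CPM beside 1210 summed CPM and 143 to 170 CPM in the Thy1.1 libraries. Runx3 was at 80.4 and 96.3 CPM beside the 2 highest sums and at most 55.2 CPM beside the others. Its lowest value, 39.3 CPM, was in unmarked GFP library 4, beside a sum of 476 CPM. Nfatc1 reached 701 CPM in marked Thy1.1 cells beside a sum of 309 CPM. It was lower in unmarked GFP cells, at 558 and 503 CPM, beside the higher sums of 614 and 476 CPM. Runx2, not drawn, had 47.5 and 31.5 CPM in marked Thy1.1 cells but 30.3 and 22.5 CPM in unmarked GFP cells. By mean, Nfatc1 and Runx2 were highest in marked GFP cells, as the sum was. Marked Thy1.1 cells came next for both genes, and unmarked GFP cells came next for the sum. The part of the cell cycle in these levels was not tested.

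**Figure D5:**
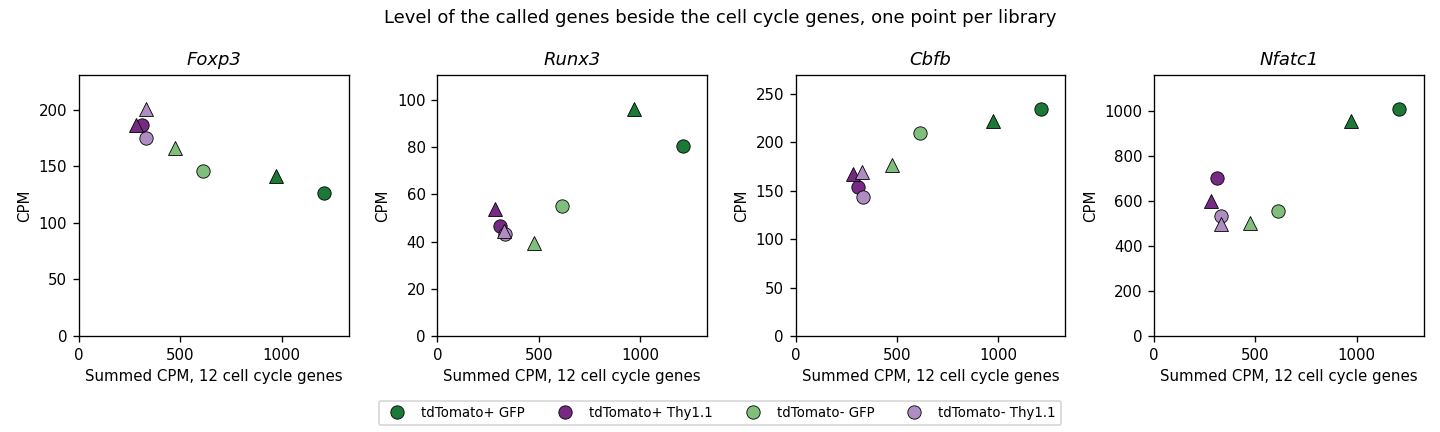
Level of Foxp3, Runx3, Cbfb and Nfatc1 in CPM (vertical axes, from 0) against the summed CPM of 12 cell cycle genes (horizontal axes), 1 point per library, coloured by population. Foxp3 runs down and Cbfb up along the cell cycle sum, and the 2 marked GFP libraries stand at 972 and 1210 summed CPM.

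Genes with like patterns were sought among 9665 genes with a mean of at least 5 CPM, by Pearson's r of log2 CPM over the 8 libraries. The libraries share 4 populations, so that many genes follow the same contrast, and the values are a description. Nearest to Foxp3 were Zfp280d (r = 0.993), Dock9 (0.991), Ddx39b (0.987), Brd8 (0.984) and Tmem55a (0.981). Nearest to Nfatc1 were Tonsl (0.989) and Nrg4 (0.989), nearest to Runx3 were Asah1 (0.991) and Rpl41 (0.991), nearest to Runx2 was Arl2bp (0.983), and nearest to Cbfb were F2rl2 (0.995) and Zfp385c (0.99). The best r was lower for the genes called in no comparison, with Trp53rka (0.955) for Runx1, Rock2 (0.942) for Nfatc2 and Zfp318 (0.978) for Nfatc3. None of the 8 genes was among the 5 nearest of another. Between the 8 genes, the highest r was 0.902 for Runx3 with Nfatc1 and 0.901 for Runx2 with Nfatc1, and the lowest was -0.868 for Foxp3 with Cbfb.

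For the gene lists that follow, the share called over all genes tested was 14.8% in marked GFP against marked Thy1.1 cells. In marked against unmarked GFP cells it was 12.6%. Every call of the interaction, and every call between unmarked GFP and unmarked Thy1.1 cells, was lost when any single Thy1.1 library was left out. Of 21 tested calcineurin and calcium entry genes, 3 were higher and 2 lower in marked GFP against marked Thy1.1 cells, with a median log2 fold change of -0.14 beside -0.005 for all genes, and 4 were higher and 2 lower in marked against unmarked GFP cells (median -0.03, beside 0.029 for all genes). Fkbp1a, the immunophilin through which tacrolimus blocks calcineurin, had 513 and 436 CPM in marked GFP cells, against 252 and 251 CPM in marked Thy1.1 cells (0.91 ± 0.13; edgeR adjusted p = 0.00415). Ppp3ca, a catalytic subunit of calcineurin, had 99.3 and 113 CPM against 204 and 202 CPM (-0.94 ± 0.15; adjusted p = 0.00735), and 154 and 192 CPM in unmarked GFP cells.

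Of 12 tested genes for NFAT export kinases and other NFAT regulators, 0 were higher and 1 lower in marked GFP against marked Thy1.1 cells (median -0.14), and 0 were higher and 2 lower in marked against unmarked GFP cells (median -0.10). Both counts lie near the share over all genes, 14.8% and 12.6%, so they are no result about the list. Dyrk2, a kinase that phosphorylates NFAT, had 17.5 and 14.3 CPM in marked GFP cells, 27.9 and 26.1 CPM in marked Thy1.1 cells, and 30.4 and 33.0 CPM in unmarked GFP cells (edgeR adjusted p = 0.0404 and 0.0201 for the 2 comparisons). Homer3, a scaffold that competes with calcineurin for NFAT, was lower in marked than in unmarked GFP cells (-0.80 ± 0.20; adjusted p = 0.042). Dyrk2 and Homer3 overlap other genes.

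Of 13 tested genes listed as AP-1 factors, 3 were higher and 0 lower in marked GFP against marked Thy1.1 cells (median 0.26), and 3 were higher and 0 lower against unmarked GFP cells (median 0.53). The list included the Maf genes Maff, Mafk and Mafg, and not every listed gene is a partner of NFAT. Batf, an AP-1 factor of effector T cells, had 262 and 210 CPM in marked GFP cells, 131 and 143 CPM in marked Thy1.1 cells and 139 and 86.9 CPM in unmarked GFP cells (edgeR adjusted p = 0.0422 and 0.019). Mafg rose in both comparisons (1.27 ± 0.23 and 1.05 ± 0.23), Fos rose against marked Thy1.1 cells (1.43 ± 0.30), and Junb rose against unmarked GFP cells (0.73 ± 0.11). Mafg and Junb overlap other genes. Fos and Junb also belong to the 10 handling stress genes, of which 2 were higher in the first and 1 in the second comparison, with sums of 1396 and 1314 CPM in marked GFP cells, 1104 and 959 CPM in marked Thy1.1 cells, and 1059 and 1017 CPM in unmarked GFP cells. The part of handling in these calls was not tested.

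Of 15 tested NFAT-dependent activation genes, 3 were higher and 2 lower in marked GFP against marked Thy1.1 cells (median -0.34), and 2 were higher and 2 lower against unmarked GFP cells (median 0.18). Egr1, an early response gene, had 450 and 406 CPM in marked GFP cells against 237 and 213 CPM in marked Thy1.1 cells (0.93 ± 0.11; edgeR adjusted p = 0.00264), and Il4, the Th2 cytokine gene, had 34.2 and 31.8 CPM against 10.4 and 7.50 CPM (1.88 ± 0.36; adjusted p = 0.0133). Tnfsf11, which encodes the cytokine RANKL, had 41.5 and 56.6 CPM against 106 and 92.03 CPM (-1.01 ± 0.18; adjusted p = 0.0102). Against unmarked GFP cells, with 1.56 and 0.792 CPM, Il4 rose by 4.81 ± 0.41 (adjusted p = 0.00108). Cd40lg, the ligand that helps B cells, was higher in marked than in unmarked GFP cells (0.87 ± 0.16; adjusted p = 0.0145), and Nr4a1, an antigen receptor response gene, was lower (-0.80 ± 0.17; adjusted p = 0.0251). The list moved in both directions in both comparisons.

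Of 15 tested Runx cofactor and regulator genes, 0 were higher and 2 lower in each of these comparisons, with medians of -0.29 and -0.22, again near the 14.8% and 12.6% called over all genes. Both times the genes were Kmt2a, which encodes a histone methyltransferase, and Smurf2, which encodes a ubiquitin ligase. Kmt2a had 101 and 113 CPM in marked GFP cells, 187 and 198 CPM in marked Thy1.1 cells, and 185 and 191 CPM in unmarked GFP cells (edgeR adjusted p = 0.00233 and 0.00322). Both genes overlap other gene models.

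Of 27 tested Foxp3 protein partners and cofactors, 4 were higher and 5 lower in marked GFP against marked Thy1.1 cells (median -0.02), and 2 were higher and 9 lower against unmarked GFP cells (median -0.24). Hdac7, a histone deacetylase, had 298 and 287 CPM in marked GFP cells against 181 and 170 CPM in marked Thy1.1 cells (0.74 ± 0.09; edgeR adjusted p = 0.00257). Satb1, a chromatin organiser, had 214 and 197 CPM in marked GFP cells, 385 and 415 CPM in marked Thy1.1 cells and 847 and 994 CPM in unmarked GFP cells (-0.96 ± 0.10 and -2.16 ± 0.10; adjusted p = 0.00189 and 0.000286). Lef1, a Wnt pathway factor of naive T cells, followed the same order with 277 and 253, 483 and 448, and 759 and 792 CPM. Both had a called interaction, -1.34 ± 0.14 for Satb1 and -1.13 ± 0.13 for Lef1 (adjusted p = 0.0161 and 0.0165). Foxp1, a forkhead relative of Foxp3, had 711 and 799 CPM in marked against 1166 and 1343 CPM in unmarked GFP cells (-0.73 ± 0.10; adjusted p = 0.00473). Against marked Thy1.1 cells, with 848 and 902 CPM, it was at -0.21 ± 0.10 and did not pass (adjusted p = 0.185). Exons of Hdac7, Satb1, Lef1 and Foxp1 overlap those of other gene models, so their levels are uncertain. Of the other Foxp genes, Foxp4 did not pass in either comparison (adjusted p = 0.0724 and 0.0737) and Foxp2 lay under 0.64 CPM in all libraries.

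Of 32 tested regulators of the Foxp3 gene, 4 were higher and 7 lower in marked GFP against marked Thy1.1 cells (median -0.18), and 3 were higher and 12 lower against unmarked GFP cells (median -0.36). Uhrf1, which guides maintenance of DNA methylation and is high in dividing cells, had 121 and 76.6 CPM in marked GFP cells against 11.5 and 8.78 CPM in marked Thy1.1 cells (3.29 ± 0.28; edgeR adjusted p = 0.000886). Its interaction was called too (2.70 ± 0.37; adjusted p = 0.0326). Id3, an inhibitor of E proteins, had 33.7 and 28.7 CPM in marked GFP cells, 176 and 148 CPM in marked Thy1.1 cells and 160 and 173 CPM in unmarked GFP cells (-2.37 ± 0.14 and -2.41 ± 0.14; adjusted p = 0.000626 and 0.000286). Tet1, a methylcytosine oxidase, had 2.73 and 3.38 CPM in marked against 18.8 and 22.8 CPM in unmarked GFP cells (-2.77 ± 0.29; adjusted p = 0.00216).

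Genes known to be activated or repressed by Foxp3 moved in both directions. The lists were chosen with earlier results of these data known. Their called shares are thus no test beside the 14.8% and 12.6% over all genes. Satb1 stands in the lists of partners, of regulators and of repressed genes. Of 19 tested genes activated with Foxp3, 7 were higher and 6 lower in marked GFP against marked Thy1.1 cells (median 0.13), and 8 were higher and 5 lower against unmarked GFP cells (median 0.29). Capg, an actin-capping protein gene of Treg cells, had 1282 and 1217 CPM in marked GFP cells against 444 and 485 CPM in marked Thy1.1 cells (1.43 ± 0.14; edgeR adjusted p = 0.0017). Nrp1, a surface receptor more common on thymic Treg cells, went the other way, with 90.6 and 94.4 CPM against 578 and 435 CPM (-2.45 ± 0.17; adjusted p = 0.000626), and had 233 and 288 CPM in unmarked GFP cells. Itgae, the integrin chain CD103 of mucosal T cells, had 651 and 611 CPM in marked against 233 and 233 CPM in unmarked GFP cells (1.44 ± 0.09; adjusted p = 0.000286). Its interaction was called at 0.98 ± 0.12 (adjusted p = 0.0194). Of 15 tested genes repressed by Foxp3, 2 were higher and 3 lower in the first comparison (median -0.15), and 5 were higher and 4 lower in the second (median 0.56). Igfbp4, a gene of naive T cells, had 76.8 and 42.4 CPM in marked GFP cells against 381 and 301 CPM in marked Thy1.1 cells (-2.52 ± 0.30; adjusted p = 0.00278). In unmarked cells by reporter, the call in these lists was 1 gene, Ebi3, a cytokine subunit gene that overlaps another gene model, which was lower with GFP (-2.64 ± 0.24; edgeR adjusted p = 0.0146).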

How the data were processed

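Per the labels' protocols, libraries were made with the SMART-Seq v4 kit, which does not mark strand, from polyA RNA and sequenced from both ends. The authors deposited 1 table of whole-number read counts per gene, not normalized, as its values show. The submitters' processing notes name DESeq. Which aligner, counter and build lie behind the counts is not given in the sources used here. Of 24116 rows, 8 had no gene name (0.0215% to 0.0264% of a library) and were left out. GFP columns are numbered 3 and 4 and GFP titles 1 and 2, so a GFP column was tied to its population but to no single title.

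edgeR 4.0.16 was the main tool, and limma 3.58.1 and DESeq2 1.42.0 were alternatives, all under R 4.3.3. Genes passing filterByExpr (minimum count 10) were scaled by TMM (factors 0.978 to 1.02) and fitted in 1 robust quasi-likelihood model over 8 libraries with a mean per population, with 4 residual degrees of freedom. P-values were adjusted by Benjamini-Hochberg over all 13989 genes, with a threshold of 0.05. CPM uses the scaled totals. SEs come from the F statistic. The pipeline was also run on counts simulated from the fit itself, which is a check of the code and not of the calls above.

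The genes and lists were chosen with earlier results of these data known. Besides the 8 genes, the rule for naming took, per list and comparison, up to 3 called genes of smallest adjusted p that averaged 5 CPM or more with libraries not overlapping, and the text gives a part of these. Genes overlapping the 8, Cd8a, Cd8b1, Klrb1c, Ncr1, Klrk1, Pecam1, Siglech, Nfatc4, Nfat5 and the Foxp family were named as checks. Gene positions and lengths are from GENCODE M21, promoter sequences from RefSeq (GRCm38.p6).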

Additional observations from a re-analysis of the deposited data

How the results depend on the processing

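None of the fold changes of the 8 genes past the threshold changed sign under the alternatives run. The calls lost without a library stand beside each result. Leaving out 1 library at a time gave log2 values from -0.568 to -0.416 for Foxp3, 0.676 to 0.921 for Runx3, 0.421 to 0.564 for Cbfb and 0.488 to 0.687 for Nfatc1 in marked GFP against marked Thy1.1 cells, and 0.685 to 1.584 for Runx2 and 0.678 to 1.169 for Runx3 in marked against unmarked GFP cells. Genes called then ranged from 461 to 2138 and calls among the 8 genes from 0 to 4 in the first comparison, from 438 to 1830 and from 1 to 2 in the second, from 0 to 74 genes in unmarked cells by reporter, 0 genes within Thy1.1 cells, and from 0 to 105 genes for the interaction. In unmarked cells by reporter and for the interaction the counts were 0 without any 1 Thy1.1 library, 74 and 15 without unmarked GFP library 4, and 48 and 105 without marked GFP library 3; the first was also 46 without marked GFP library 4 and 9 without unmarked GFP library 3. The same genes were tested in each of these fits, and a population left with 1 library was assumed to vary like the others.

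With both GFP libraries numbered 3 left out, an alternative chosen after seeing the data because they held markers of other cells, Foxp3 (-0.416, edgeR adjusted p = 0.0709) and Cbfb (0.45, adjusted p = 0.0763) lost their calls among marked cells and Runx2 (0.914, adjusted p = 0.124) within GFP cells, while Runx3 within GFP cells was 1.285. Calls then numbered 1968 and 1607 genes in the first 2 comparisons, with 2 of the 8 genes in each, 19 in unmarked cells by reporter, 2 within Thy1.1 cells and 210 for the interaction. Library totals gave 0.445 for Cbfb among marked cells. For Runx2 within GFP cells, RLE size factors gave 1.188, library totals 1.177, a non-robust dispersion 1.206, limma-voom 1.18 and the 2 populations alone 1.173, and the 2 populations alone gave 0.87 for Runx3 and 1 member called. The Nfatc1 interaction was 0.531 by DESeq2, the 1 member it called there.

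DESeq2 called 3211 against 2074 by edgeR in marked cells by reporter, 3012 against 1768 within GFP cells, 628 against 23 in unmarked cells by reporter, 150 against 0 within Thy1.1 cells and 596 against 62 for the interaction. In unmarked cells by reporter the count was 98 with no filter, 106 with a minimum count of 100, 3 by limma-voom and 0 with the 2 populations alone. The 2 populations alone gave 285 within GFP cells and 2 within Thy1.1 cells. For the interaction it was 109 with no filter, 105 with a minimum count of 100 and 28 by limma-voom. The causes were not tested.

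The replicate block, odd against even library numbers, gave 39 calls in unmarked cells by reporter against 23, and left every call of the 8 genes as it was. Deviations from population means correlated between odd libraries with r from 0.0325 to 0.056 over 13989 genes, so the numbers were not treated as pairs.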
